A study of Saccharomyces cerevisiae with 18 samples.

Results

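The 10 genes described here encode subunits of Rpd3L, the large histone deacetylase complex built around Rpd3 in budding yeast, without RXT3 and PHO23, the subunit genes that were edited in this series. They were taken by name from the processed table as RPD3 (YNL330C), SIN3 (YOL004W), UME1 (YPL139C), RXT2 (YBR095C), DEP1 (YAL013W), SAP30 (YMR263W), SDS3 (YIL084C), CTI6 (YPL181W), UME6 (YDR207C) and ASH1 (YKL185W). They are 10 of the 6650 named open reading frames (ORFs) in the table. Of these 10, 9 had a value in all 6 strains, as did 4956 ORFs in all. SDS3 had a value in only 2 strains and enters none of the counts of values below.

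Rpd3L removes acetyl groups from histone tails at promoters that DNA-binding proteins mark for it, and is best known as a repressor of early meiotic, metabolic and cell-type genes in growing cells. Rpd3 is the deacetylase and Sin3 the scaffold, and both also form the smaller complex Rpd3S, together with Ume1. Rxt2, Dep1, Sap30, Sds3 and Cti6 belong to the large complex, as do Rxt3 and Pho23. Ume6 and Ash1 bind DNA and bring the complex to its targets, Ume6 at the URS1 element and Ash1 at the HO gene in daughter cells.

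All strains were derived from BY4741, a haploid laboratory strain of Saccharomyces cerevisiae of mating type a, in which 1 of 2 loci was edited. At RXT3 the gene was deleted, replaced by the allele of strain T73 or replaced by the allele of strain CLIB215, and the same 3 edits were made at PHO23. The cells were inoculated at an OD of 0.1 into YP medium with xylulose, a pentose sugar, and harvested in log phase. The labels list 3 libraries for each of the 6 strains, but the table holds 1 column per strain, so each value is the authors' pooled value and carries no replicate error. The number of clones behind each strain is not given in the sources used here. Unedited BY4741 was not analysed here.

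The values are logarithms relative to a centre for each ORF that the sources used here do not describe, and which is not the mean of the 6 columns, since 65 of the 4956 complete ORFs have one sign in all columns. They are read as log2, although the base is not written in the table. They are taken to show how a gene differs between strains, which assumes a centre common to the columns, and not how abundant its transcript is. Differences are given in these log units, so that 1 unit is a 2-fold difference if the base is 2. With 1 value per strain no test against replicate error is possible, and every difference below compares pooled columns without a replicate check. As a yardstick, each difference is set beside the share of the 4956 complete ORFs that differed by more between the same columns.

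Strains are named by the sample titles. For 3 of the 6 strains the genotype in the labels is another edit. The columns titled RXT3 T73, RXT3 CLIB215 and PHO23 deleted carry the genotypes PHO23 deleted, RXT3 T73 and RXT3 CLIB215. PHO23 itself had no value in the column titled PHO23 deleted and values in the other 5, from −0.88 to 0.35. Of the 6650 named ORFs, 36 lacked a value in that column alone. In the column titled RXT3 T73, which the genotype field names PHO23 deleted, PHO23 stood at −0.07. RXT3 had a value of −0.05 in the column titled RXT3 deleted, inside its range of −0.36 to 0.23 over the other strains, so its deletion was not visible in the table. Of the marker genes that BY4741 lacks in whole, LEU2 and MET17 had no value in any strain, and URA3 had 1 value, −1.19, in the PHO23 T73 strain. The columns PHO23 deleted and PHO23 CLIB215 were the most widely spread, with SDs over complete ORFs of 0.421 and 0.422 against 0.282 to 0.319 in the others, and no library depth is known.

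Among the 10 promoters, that of UME6 was the only one with the core of the URS1 element, the sequence that Ume6 itself binds. It is shown here because UME6 had the widest range of the 10 genes, together with the promoter of RXT2, the gene with the next widest. Each window runs from 250 bases before to 50 after the annotated start of the gene, in build R64 and on the gene's strand, with the genome sequence taken from RefSeq. The UME6 window is chrIV:867473-867772 (minus strand), with the URS1 core in capitals, and the RXT2 window is chrII:435649-435948 (minus strand), with the start codon in capitals.
UME6: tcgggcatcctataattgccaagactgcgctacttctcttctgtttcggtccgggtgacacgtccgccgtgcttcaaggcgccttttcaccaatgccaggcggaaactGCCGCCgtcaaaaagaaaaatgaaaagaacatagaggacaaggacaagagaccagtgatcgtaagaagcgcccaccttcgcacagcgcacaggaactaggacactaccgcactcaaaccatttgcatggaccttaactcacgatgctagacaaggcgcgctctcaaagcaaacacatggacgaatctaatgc
RXT2: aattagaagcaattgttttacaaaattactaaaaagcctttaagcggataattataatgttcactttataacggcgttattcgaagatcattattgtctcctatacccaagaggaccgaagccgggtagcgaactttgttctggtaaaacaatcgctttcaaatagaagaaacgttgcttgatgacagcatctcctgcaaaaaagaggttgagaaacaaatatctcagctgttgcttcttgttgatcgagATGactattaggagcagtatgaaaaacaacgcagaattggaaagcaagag

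The URS1 core was searched as GGCGGC on both strands, so that it appears as GCCGCC where it lies on the opposite strand. It was present in 308 of 6001 windows of protein-coding genes, or 5.13%, and in 16 of the 22 windows of a list of textbook Ume6 targets, which is largely a list of genes known for this element. The UME6 window is rich in G and C (51.3%, against a median of 36% over all windows), and only 0.2% of windows were richer. A match is a description of the letters in this window and not evidence that Ume6 binds there. The sites of UME6 and of the targets with values described below are set side by side, with the core in capitals and 9 bases on each side, all on the strand of the gene.
UME6: gcggaaactGCCGCCgtcaaaaag
CAR1: ttagcggtaGCCGCCgaggggtct
ACS1, distal: gtacgaattGCCGCCgagcctccg
ACS1, proximal: tataaactgGGCGGCtattctaag
ZIP1: aataccctcGGCGGCtaaattttt
DMC1: cggaaaataGCCGCCcaaggataa
SPO22: acaaacttcGGCGGCtaattgcaa
INO1: ctctgcgttGGCGGCaatgttaat
The coordinates that follow are those of the whole stretch of 24 bases shown, core and flanks together. The UME6 core starts 142 bases before the start codon (chrIV:867650-867673), that of CAR1 155 bases before (chrXVI:339780-339803), that of DMC1 138 bases before (chrV:548274-548297) and that of SPO22 124 bases before (chrIX:226064-226087). ACS1 has a pair of cores, 225 and 128 bases before its start (chrI:45233-45256 and chrI:45136-45159), ZIP1 has one 20 bases before (chrIV:1032407-1032430) and INO1 one 146 bases before (chrX:136065-136088). On the strand shown, the cores of UME6, CAR1 and DMC1 and the distal one of ACS1 read GCCGCC, and the others read GGCGGC.

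Over the strains, most of the Rpd3L genes ranged about as widely as other ORFs or less, and UME6 lay in the upper tail. The range over the 6 strains, from the lowest to the highest value, had a median of 0.66 over the 9 complete members and of 0.76 over the 4956 complete ORFs. The narrowest were CTI6 (0.28) and SIN3 (0.34), narrower than 96.5% and 93.1% of complete ORFs. The widest was UME6 at 1.81, exceeded by 2.08% of complete ORFs, followed by RXT2 at 1.10 and ASH1 at 1.03, exceeded by 23.2% and 28.1%. Between these lay DEP1 (0.87), RPD3 (0.66), SAP30 (0.64) and UME1 (0.61). How wide a range is also depends on counting noise and so on the abundance of the transcript, which the table does not give.

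**Figure D1:**
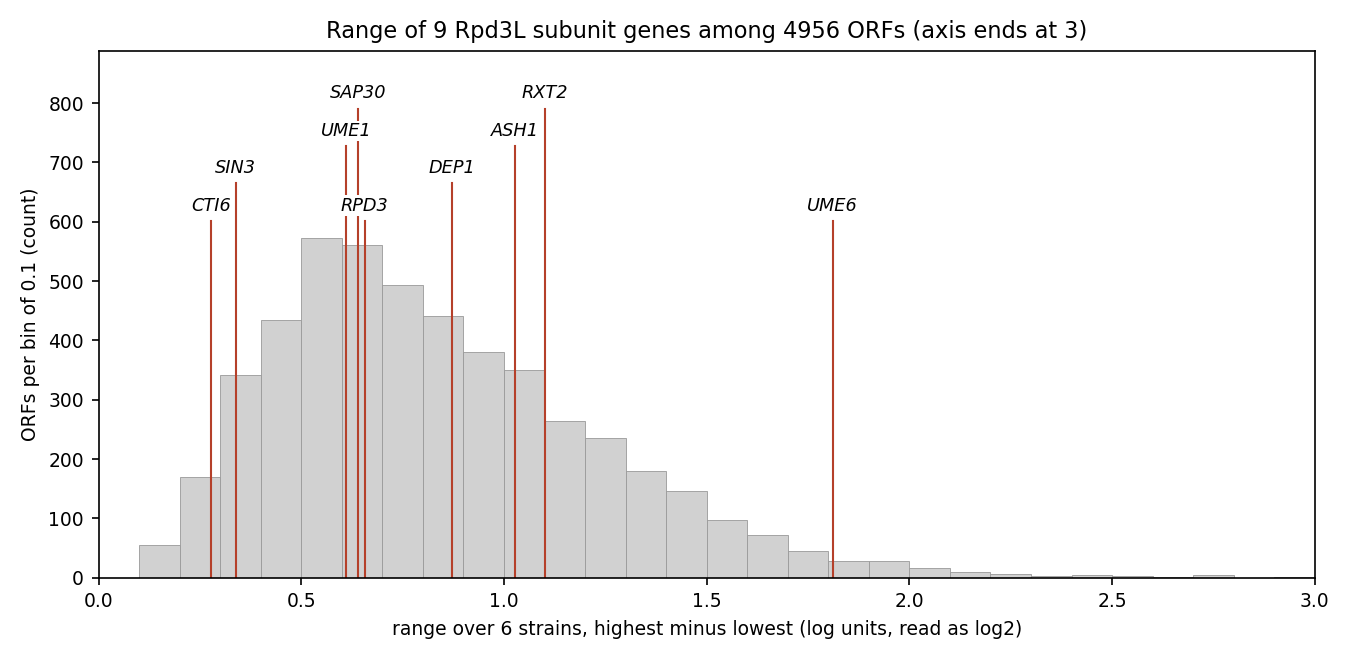
Histogram of the range over the 6 strains (highest minus lowest value, log units read as log2) for the 4956 ORFs with a value in every strain, in bins of 0.1, with the 9 complete Rpd3L genes marked by vertical lines; 6 ORFs lie beyond the end of the axis at 3. UME6 sits in the right tail at 1.81, while CTI6 at 0.28 and SIN3 at 0.34 sit at the left edge.

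RPD3 (chromosome XIV, 18001 to 19302, minus strand), the catalytic subunit, was lowest in 2 of the PHO23 strains. Its values were 0.24 with RXT3 deleted, 0.04 with the RXT3 T73 allele and 0.14 with the RXT3 CLIB215 allele, and −0.42 with PHO23 deleted, 0.13 with the PHO23 T73 allele and −0.33 with the PHO23 CLIB215 allele. The PHO23 deletion and CLIB215 strains thus lay below the other 4, with a gap of 0.37. Such a separation of these 2 columns from the other 4, in either direction, was found for 2 of the 9 members, RPD3 and UME6, and for 34.7% of complete ORFs, so it does not set the members apart. The PHO23 deletion differed from the PHO23 T73 allele by −0.55, a size exceeded by 28.9% of ORFs.

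SIN3 (chromosome XV, 316938 to 321548, plus strand), the scaffold on which the other subunits assemble, was close to level. It stood at 0.04, −0.0061 and −0.17 in the RXT3 strains (deleted, T73, CLIB215) and at 0.17, 0.14 and −0.16 in the PHO23 strains in the same order. At both loci the CLIB215 allele gave the lowest of the 3 values, by 0.16 and 0.30 against the T73 allele. Of all ORFs, 64.5% and 57.0% differed by more in these comparisons, so neither difference stood out.

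UME1 (chromosome XVI, 289669 to 291051, minus strand), a WD-repeat subunit shared with Rpd3S, was highest where RXT3 was deleted. Its value there was 0.30, against −0.26 with the T73 and −0.22 with the CLIB215 allele of RXT3. In the PHO23 strains it was −0.31 (deleted), 0.15 (T73) and −0.20 (CLIB215). The RXT3 deletion and the PHO23 T73 strain thus stood above the other 4 strains. Against the RXT3 T73 allele the RXT3 deletion differed by 0.56 and against the CLIB215 allele by 0.52, sizes that 16.8% and 16.5% of ORFs exceeded.

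**Figure D2:**
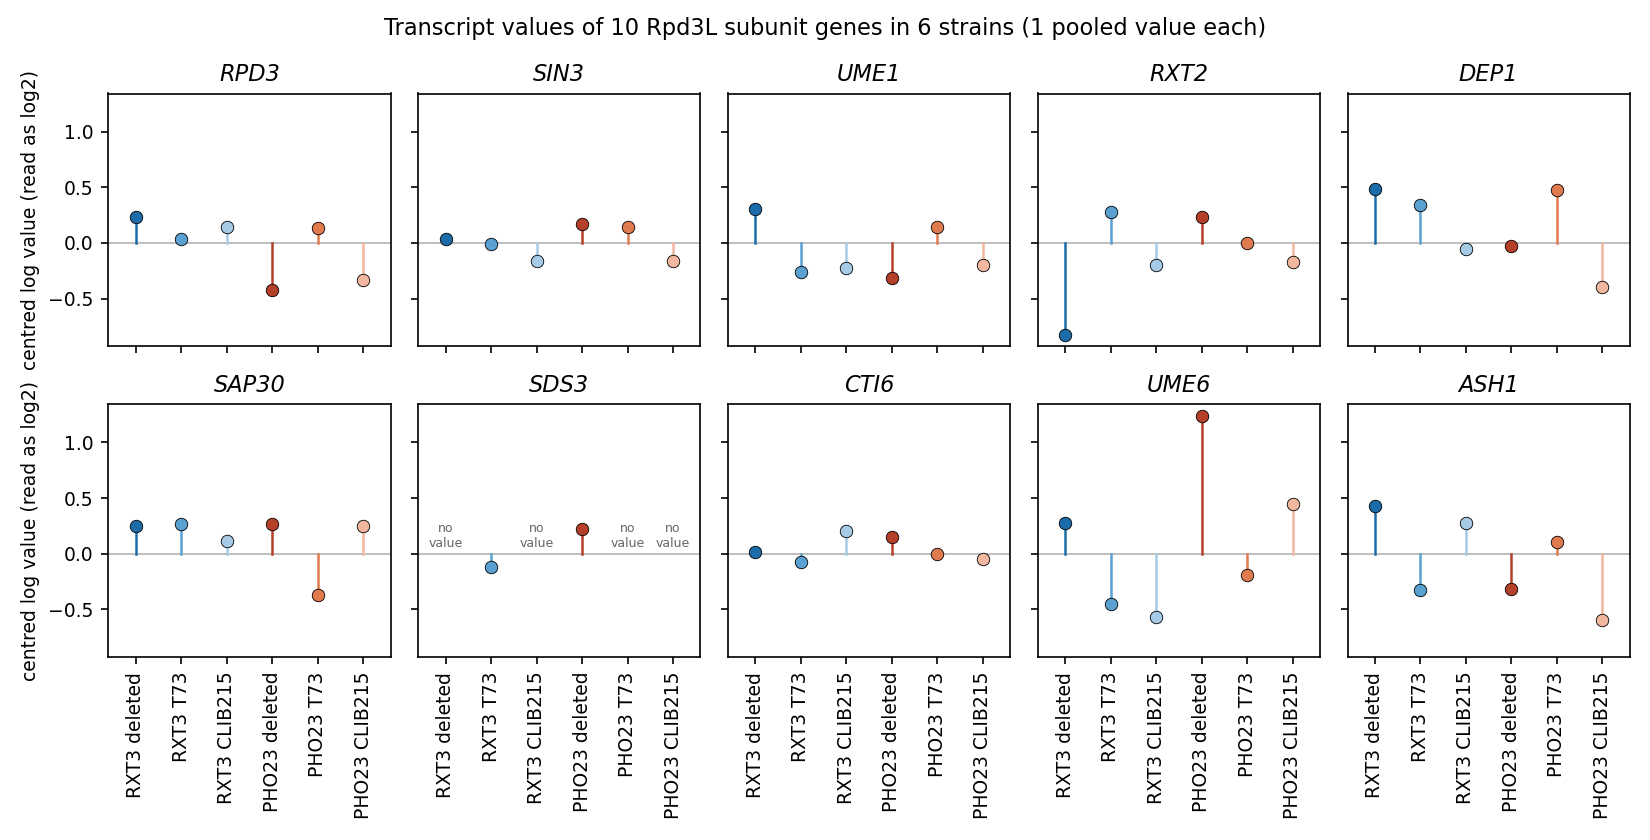
Centred log values (vertical axis, read as log2) of the 10 Rpd3L subunit genes in the 6 strains, 1 point per strain, with the RXT3 strains in blue and the PHO23 strains in red; each point is the authors' pooled value, so there are no error bars. UME6 reaches 1.24 with PHO23 deleted and RXT2 stands at −0.82 with RXT3 deleted, while SIN3 and CTI6 stay within 0.21 of the centre line.

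Of the subunits found only in the large complex, RXT2 (chromosome II, 434406 to 435698, minus strand) had the most distinct single value. It stood at −0.82 in the strain with RXT3 deleted, where 1.31% of complete ORFs lay lower. With the RXT3 T73 and CLIB215 alleles it was 0.28 and −0.19, and in the PHO23 strains 0.23 (deleted), −0.0029 (T73) and −0.17 (CLIB215). The RXT3 deletion was the lowest by a gap of 0.63, and the other 5 strains overlapped between the loci. The difference from the RXT3 T73 allele was −1.10, exceeded in size by 1.78% of ORFs, and that from the CLIB215 allele was −0.63, exceeded by 10.8%. Under the genotype field's names these differences were −0.63 and −1.06.

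The gene that faces RXT2 tail to tail, PBY1, ends 108 bases away on the plus strand and was also lowest in the RXT3 deletion strain, at −0.73. PBY1 differed from RXT2 elsewhere, with −0.33 and 0.02 with the RXT3 T73 and CLIB215 alleles and 0.65, 0.12 and 0.59 in the PHO23 strains (deleted, T73, CLIB215). Whether reads were counted by strand is not given in the sources used here, so reads near the facing ends may be shared, and this was not tested. No annotated gene overlaps any of the 10 members, but 688 ORFs of the table are not in the annotation and their overlap was not checked.

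DEP1 (chromosome I, 129270 to 130487, plus strand), a subunit first known for its effect on phospholipid synthesis genes, was highest in the RXT3 deletion (0.48), the PHO23 T73 strain (0.47) and the RXT3 T73 strain (0.34). It was near the centre with the RXT3 CLIB215 allele (−0.05) and with PHO23 deleted (−0.03), and lowest with the PHO23 CLIB215 allele (−0.39). The T73 allele was above the CLIB215 allele at both loci, by 0.87 at PHO23 and by 0.39 at RXT3. The PHO23 difference was exceeded in size by 13.0% of ORFs and the RXT3 difference by 28.8%.

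SAP30 (chromosome XIII, 794919 to 795524, plus strand), a Sin3-associated subunit, had nearly the same value in 5 strains and a lower one in the sixth. With RXT3 deleted, T73 or CLIB215 it was 0.25, 0.27 and 0.12, and it was 0.27 with PHO23 deleted and 0.25 with the PHO23 CLIB215 allele. The PHO23 T73 strain stood apart at −0.37, with a gap of 0.49 to the next strain. That strain differed from the PHO23 CLIB215 strain by −0.62, a size exceeded by 25.6% of ORFs, and the PHO23 deletion differed from it by 0.64, exceeded by 22.6%.

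CTI6 (chromosome XVI, 203421 to 204941, plus strand), a PHD-finger subunit, had the smallest range of the 9. It ran from −0.07 with the RXT3 T73 allele to 0.21 with the RXT3 CLIB215 allele, with 0.01 for RXT3 deleted and 0.15, −0.0028 and −0.05 for PHO23 deleted, T73 and CLIB215. No pair of neighbouring strains in this order was more than 0.14 apart. SDS3 (chromosome IX), a subunit needed for the integrity of the complex, had a value of −0.11 with the RXT3 T73 allele and of 0.23 with PHO23 deleted, and none in the other 4 strains. Only 124 of the 6650 ORFs had values in exactly 2 strains. SDS3 enters none of the comparisons below.

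UME6 (chromosome IV, 865012 to 867522, minus strand), the DNA-binding subunit that recruits the complex to URS1, had the highest value of any member in any strain. It stood at 1.24 with PHO23 deleted, where 0.262% of complete ORFs were higher. In the other PHO23 strains it was −0.19 (T73) and 0.45 (CLIB215), and in the RXT3 strains 0.28 (deleted), −0.45 (T73) and −0.57 (CLIB215). At each locus the deletion was the highest of the 3 strains, by 1.43 over T73 and 0.79 over CLIB215 at PHO23, and by 0.73 over T73 and 0.85 over CLIB215 at RXT3. The deletion was also the highest at both loci for SIN3, and the share of all ORFs with this order was not counted.

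The shares of ORFs that differed by more than UME6 were 2.00% and 8.03% for those PHO23 comparisons, and 9.16% and 4.34% for those at RXT3. The comparisons within a locus share the deletion column, so they are not independent of each other. The annotated neighbours of UME6 did not have its pattern: EBS1, tail to tail, was −0.05 and MSS4, head to head, −0.46 in the PHO23 deletion strain. The column with the value of 1.24 is the one in which PHO23 had no value, but the genotype field names it as RXT3 CLIB215. Under the names of that field the order turned, with the PHO23 deletion at −0.26 against T73 and −0.90 against CLIB215, and the RXT3 deletion at 0.85 against T73 and −0.96 against CLIB215. Between the RXT3 alleles, T73 minus CLIB215, UME6 went from 0.12 to −1.81, a size exceeded by 0.585% of ORFs between those columns.

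ASH1 (chromosome XI, 94499 to 96265, plus strand), the repressor of HO in daughter cells, had its highest values with RXT3 deleted (0.43) and with the RXT3 CLIB215 allele (0.27). It was 0.11 with the PHO23 T73 allele and lower in the others, at −0.32 with the RXT3 T73 allele, −0.32 with PHO23 deleted and −0.60 with the PHO23 CLIB215 allele. The T73 and CLIB215 alleles were ordered oppositely at the loci, with T73 0.70 above CLIB215 at PHO23 and a difference of −0.60 at RXT3. No other member had opposite differences of at least 0.5 units at both loci, and 5.49% of complete ORFs did. Under the genotype field's names the difference at RXT3 turned to 0.59, the same direction as at PHO23. ASH1 is transcribed in a short part of the cell cycle, and in bulk RNA fewer cells that express it and less RNA per cell cannot be told apart.

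The members were next compared as a set in each of 7 pairs of strains. A difference of at least 1 unit was counted, as a description and not a test. With the PHO23 T73 allele against the CLIB215 allele, 0 of 9 members reached that size, against 8.8% of ORFs, and 4 of 9 reached 0.5 units, against 34.6%. The members' median difference was 0.30, against 0.06 over all ORFs, and 7 of 9 were above 0, as were 54.6% of ORFs. DEP1 (0.87) and ASH1 (0.70) were highest and UME6 (−0.64) and SAP30 (−0.62) lowest, so the members did not all lie on the same side of 0.

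In the PHO23 deletion against the T73 allele, UME6 was the 1 member of 9 past the size rule, against 8.47% of ORFs, and 4 of 9 reached 0.5 units, against 33.3%. The median was 0.03 (−0.04 over all ORFs). SAP30 (0.64) followed UME6, while RPD3 (−0.55), DEP1 (−0.50), UME1 (−0.46) and ASH1 (−0.43) lay on the other side. Against the CLIB215 allele the PHO23 deletion had 0 of 9 members past the rule, with 3.21% of ORFs past it, 1 member (UME6) at 0.5 units or more, against 23.6%, and a median of 0.28 against 0.02. After UME6 the highest there were RXT2 (0.41) and DEP1 (0.36).

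At RXT3, 0 of 9 members reached 1 unit between the T73 and CLIB215 alleles, against 2.2% of ORFs, and 1 of 9 reached 0.5 units, against 19.5%. The median was 0.12 (0.02 over all ORFs). RXT2 (0.47) and DEP1 (0.39) were highest with the T73 allele and ASH1 (−0.60) and CTI6 (−0.28) lowest. Between the RXT3 deletion and the T73 allele, RXT2 was the 1 member of 9 past the rule, against 2.89% of ORFs, 4 of 9 reached 0.5 units, against 21.6%, and the median was 0.14 (0.0095 over all ORFs). ASH1 (0.75), UME6 (0.73) and UME1 (0.56) were higher in the deletion.

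Against the RXT3 CLIB215 allele, 0 of 9 members in the RXT3 deletion passed, against 2.32% of ORFs, and 4 of 9 reached 0.5 units, against 17.9%. The median was 0.15 (0.02 over all ORFs). UME6 (0.85), DEP1 (0.54) and UME1 (0.52) were highest there and RXT2 lowest. When the strains labelled as deletions were set against each other, RXT2 (−1.06, RXT3 deleted minus PHO23 deleted) was the 1 member past the rule, against 9.02% of ORFs, and UME6 was just short of it at −0.96. At 0.5 units or more were 6 of 9 members, against 35.8% of ORFs. On the other side were ASH1 (0.75), RPD3 (0.66), UME1 (0.61) and DEP1 (0.51), and the median was −0.02 (0.03 over all ORFs).

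Over the 63 differences of 9 members in 7 comparisons, 3 were of at least 1 unit, or 4.76%, against 5.27% of those of all ORFs. At 0.5 units the members had 24, or 38.1%, against 26.6%. The 7 comparisons reuse the same 6 columns, so these counts hold fewer independent values than they list. None of the 9 members had RXT3 and PHO23 strains that did not overlap, while 14% of complete ORFs did.

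**Figure D3:**
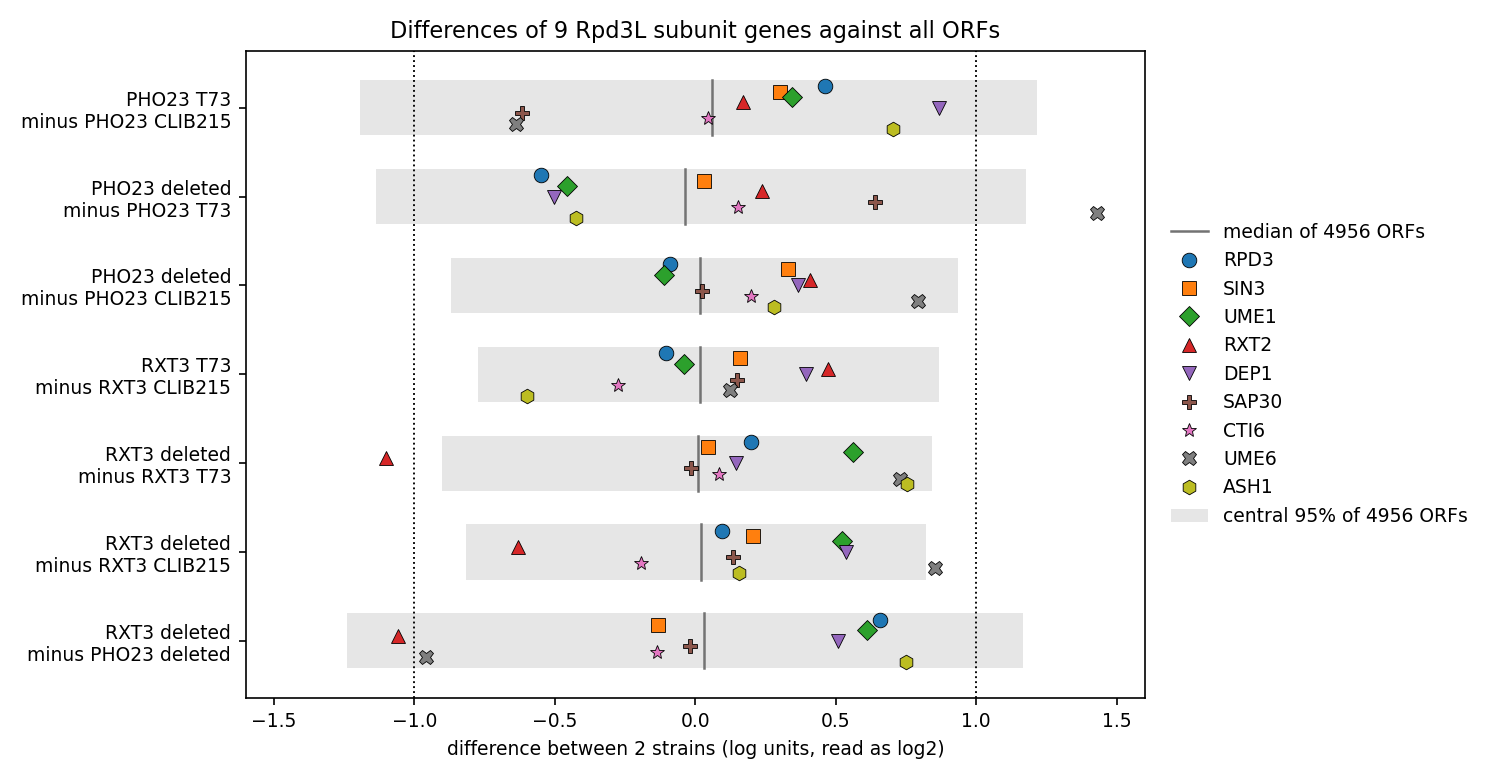
Differences of the 9 complete Rpd3L genes (coloured symbols, log units read as log2) in 7 comparisons of strains, with the central 95% of the 4956 complete ORFs as grey bars, their median as a grey line and the size rule of 1 unit dotted. UME6 at 1.43 and RXT2 at −1.10 lie outside the grey bars in PHO23 deleted minus T73 and RXT3 deleted minus T73, and UME6 at 0.85 lies just outside in RXT3 deleted minus CLIB215.

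By role, the 3 subunits shared with Rpd3S had medians of 0.24, −0.0061 and −0.17 in the RXT3 strains (deleted, T73, CLIB215) and of −0.31, 0.14 and −0.20 in the PHO23 strains. The 4 complete subunits of the large complex alone had 0.13, 0.27 and 0.03, and 0.19, −0.0029 and −0.11. In the PHO23 deletion the shared subunits were thus on the low side and the others on the high side, but SIN3 (0.17) and DEP1 (−0.03) did not follow their groups. RCO1, a subunit of Rpd3S alone, ran from −0.89 with PHO23 deleted to 0.65 with RXT3 deleted, and differed by −1.24 between the PHO23 deletion and the T73 allele. EAF3, which Rpd3S shares with the NuA4 acetyltransferase, ran only from 0.40 to 0.87, and ECM5, of the Snt2 complex that also holds Rpd3, from −0.32 to 0.64. Of the 4 listed genes of Rpd3S and the Snt2 complex, SNT2 lacked a value in 1 strain, and RCO1 was the only one of the other 3 past the size rule between the PHO23 deletion and the T73 allele, against 8.47% of ORFs. Under the genotype field's names RCO1 was at −0.27 with PHO23 deleted and 0.35 with the PHO23 T73 allele, short of the rule.

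Genes that Ume6 is known to repress through URS1 were set beside UME6. Of 22 listed targets only 6 had a value in all strains, 12 had some and 4 had none, most of them meiotic genes. Of the 6, 5 were above 0 in the PHO23 deletion against the T73 allele, as were 46.9% of ORFs, with a median of 0.39 (−0.04 over all ORFs), and 2 passed 1 unit, the arginase gene CAR1 (1.59) and the acetyl-CoA synthetase gene ACS1 (1.54), as did 4.52% of ORFs in that direction. The site sequences of both are shown above. Under the genotype field's names the PHO23 deletion is the column titled RXT3 T73, with CAR1 at 0.09 and ACS1 at 0.51. The PHO23 T73 column keeps its name, with −0.43 and −0.39, so neither gene was past 1 unit under those names. The counts of targets given here follow the titles and were not repeated under those names. The targets did not go with UME6 in every comparison in which UME6 was higher. In the PHO23 deletion against the CLIB215 allele, where UME6 differed by 0.79, 1 of the 6 was above 0, as were 51.4% of ORFs, with a median of −0.09. In the RXT3 deletion against the T73 allele, where UME6 differed by 0.73, 2 of the 6 were above 0, as were 51.1% of ORFs, with a median of −0.25. Against the RXT3 CLIB215 allele, where UME6 differed by 0.85, 5 of the 6 were above 0, as were 53.0% of ORFs, with a median of 0.27. These counts depend on the need for a value in every strain. Among all listed targets with a value in both columns compared, the PHO23 deletion had 7 of 9 above 0 against T73. Against the PHO23 CLIB215 allele it had 6 of 11. The RXT3 deletion had 4 of 9 above 0 against T73 and 7 of 8 against CLIB215.

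CAR1 stood at 1.16 with PHO23 deleted and at 1.38 with the PHO23 CLIB215 allele, against −0.64, 0.09 and −0.60 in the RXT3 strains (deleted, T73, CLIB215) and −0.43 with the PHO23 T73 allele. ACS1 was at 1.15 and 1.23 in the same pair of PHO23 strains and between −0.44 and 0.51 in the others. Thus CAR1 and ACS1 were at least as high with the PHO23 CLIB215 allele as with PHO23 deleted, while UME6 was 0.79 higher with PHO23 deleted than with that allele. ZIP1, of the synaptonemal complex, had 0.55 with PHO23 deleted and 0.64 with the PHO23 CLIB215 allele, against −0.78 to 0.18 elsewhere. DMC1, a meiotic recombinase gene, had 0.33 and 0.46 in that pair and −0.62 to −0.08 elsewhere. A separation of that pair of columns from all the others, in either direction, was found for 34.7% of complete ORFs, so it is not particular to these genes. CAR2, of arginine breakdown like CAR1 but without the core in its window, was highest with PHO23 deleted (0.34) and stood at −0.11 with the PHO23 CLIB215 allele.

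SPO22, a meiotic gene with the same core, went the other way, with −0.21 and −0.19 in those strains and its highest value, 1.00, with RXT3 deleted. INO1, the inositol phosphate synthase gene, named after its values were seen, had no value with the RXT3 CLIB215 allele. It stood at 0.46 with PHO23 deleted and 0.29 with the PHO23 CLIB215 allele, and at −0.85 to −1.31 in the other 3 strains. Between the deletions, RXT3 minus PHO23, 5 of the 6 complete targets were below 0, as were 47.6% of ORFs, with a median of −0.83 (0.03 over all ORFs).

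**Figure D4:**
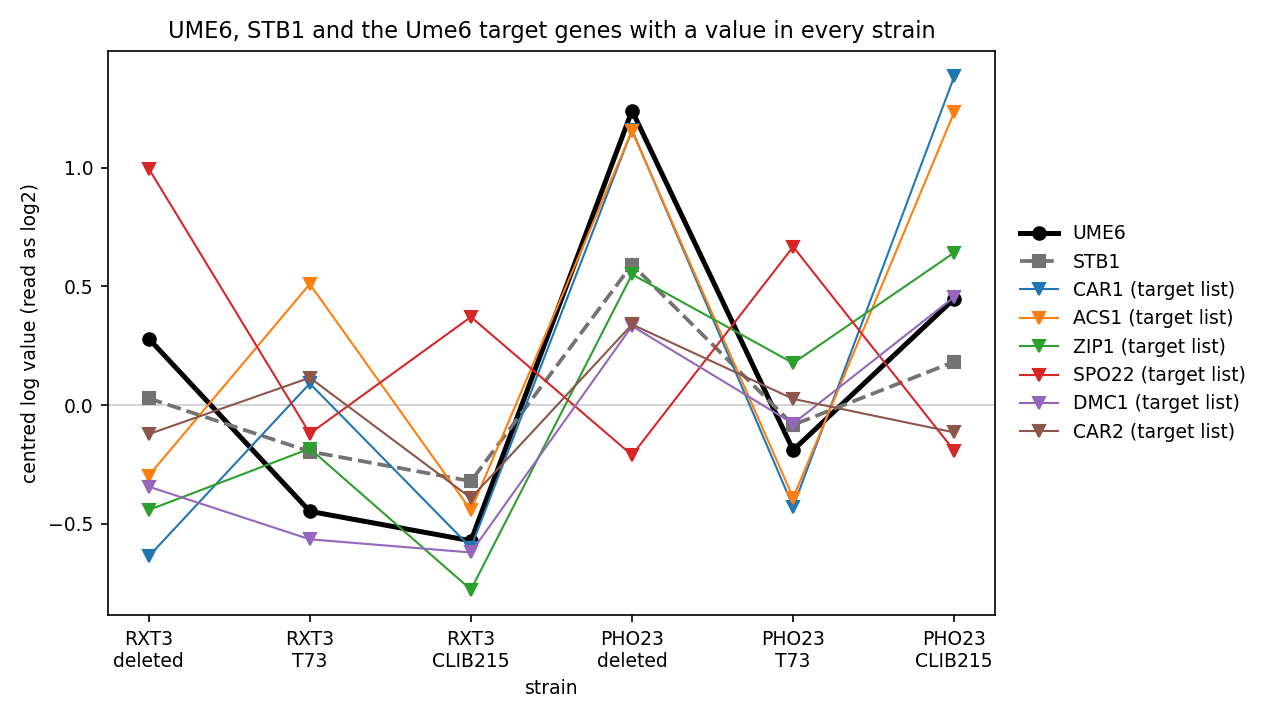
Centred log values (vertical axis, read as log2) in the 6 strains (horizontal axis) of UME6 (black), STB1 (grey, dashed) and the 6 listed Ume6 target genes that had a value in every strain (coloured); lines only join the points of a gene. UME6 peaks at 1.24 with PHO23 deleted, and CAR1 and ACS1 are at 1.16 and 1.15 there and at 1.38 and 1.23 with the PHO23 CLIB215 allele.

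The partners of Ume6 showed the opposite order for some genes. ISW2, the remodeller that Ume6 also recruits, was at −0.67 with PHO23 deleted and 0.46 with the PHO23 T73 allele, a difference of −1.13. RIM15, a kinase upstream of Ume6 in nutrient signalling, differed by −1.04 in the same comparison, while RIM11, the kinase that phosphorylates Ume6, differed by −0.19 and ITC1, the partner of ISW2, by 0.36. Thus 2 of these 4 genes differed by at least 1 unit in that comparison, as did 8.47% of ORFs in either direction. Under the genotype field's names ISW2 was at 0.29 and RIM15 at −0.0064 with PHO23 deleted. With the PHO23 T73 allele they were at 0.46 and 0.70, so neither was past 1 unit under those names. IME1, the meiotic activator that binds Ume6, had a value in 1 strain only.

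Of the listed partners that bind Sin3 or recruit the complex, STB1 stood closest to UME6. STB1 encodes a Sin3-binding protein that acts at G1 promoters. It had 0.03, −0.20 and −0.32 in the RXT3 strains (deleted, T73, CLIB215) and 0.59, −0.08 and 0.18 in the PHO23 strains, the same order as UME6 with a range of 0.91. Its Pearson correlation with UME6 over the 6 strains was 0.99, the highest of the 4857 annotated complete ORFs compared, followed by BUD3, a bud-site gene (0.98), and ICT1, an acyltransferase gene (0.96). With 6 points that share columns this is a description, and 67 ORFs had a correlation of at least 0.9. OPI1 (range 0.30) and XBP1 (range 0.62) were past 1 unit in no comparison, and WHI5 had no value.

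For RXT2 the closest patterns over the 6 strains were those of VVS1 (0.98), NAM2, the mitochondrial leucyl-tRNA synthetase gene (0.97), and AGX1, an aminotransferase gene (0.97), among 31 ORFs at 0.9 or more. The closest to ASH1 were SNT1, a subunit gene of the Set3 deacetylase complex, SPO24 and VMA16, a vacuolar ATPase gene, each at 0.98, among 103 ORFs at 0.9 or more.

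The listed genes of the Ash1 pathway all had a value in every strain. HO, the endonuclease gene that Ash1 represses, was lowest with PHO23 deleted (−0.86) and highest with the RXT3 CLIB215 allele (0.35), and differed by −0.56 between the PHO23 deletion and the T73 allele. SWI5, which encodes the activator of ASH1, was at 0.71 with RXT3 deleted and 0.55 with the PHO23 T73 allele and between −0.41 and 0.16 in the others, and differed by 0.96 between the PHO23 alleles (T73 minus CLIB215), in the same direction as ASH1. Between the RXT3 alleles SWI5 differed by 0.46, opposite to ASH1 at −0.60. PUF6, a translational repressor of the ASH1 mRNA that also acts in ribosome assembly, was at 0.86 with PHO23 deleted and −0.83 with the PHO23 T73 allele. Under the genotype field's names PUF6 was at 0.06 with PHO23 deleted, less than 1 unit above the PHO23 T73 allele. SHE3, an adaptor gene for transport of the ASH1 mRNA, had a range of 0.73. In the PHO23 deletion against the T73 allele, 1 of the 7 listed genes, PUF6, differed by at least 1 unit, against 8.47% of ORFs.

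The core of the Swi5 site, searched as ACCAGC on both strands with no overlap with the URS1 matches, was found in the windows of SIN3 and ASH1 among the 10 members and in 8.12% of all windows. In SIN3 it lies 204 bases before the start, and in ASH1 inside the coding sequence.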

How the data were processed

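The labels describe 18 libraries, made from fragmented poly(A) RNA with barcoded primers carrying unique molecular identifiers. The submitters' processing notes name Bowtie, without a version, and build R64. For counting, strand use, filtering, normalization and centring the method is not given in the sources used here. The authors deposited 1 table of 6701 rows with log2 values (base assumed) in 6 columns, 1 per strain, each matched to the shared start of its sample titles. A linear model on log values (limma) was planned for replicate columns and could not be used. Differences of columns were taken over the 4956 ORFs with a value in all 6, with Python 3.11.15 and pandas 2.3.3. The code of the size rule was run on simulated data with a narrower spread than these columns and added differences set well past the rule. That run checks the code only and does not measure how the rule performs on these data. Names, coordinates and sequence came from RefSeq R64, the build in the notes, in which 5962 of 6650 ORFs matched. All 10 members are named. Of each other list the genes named were chosen by range over the strains, up to 4, and others are given for completeness after their values were seen. For the 3 members of widest range the 3 ORFs of highest correlation are named. Members, lists and motifs were chosen with earlier results of these data known. Alternatives were naming by the genotype field, median centring, SD scaling, a size of 0.5 and members with values in both columns.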

Additional observations from a re-analysis of the deposited data

Results flagged for a closer look

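ASH1 was the 1 member whose T73 and CLIB215 alleles differed in opposite directions at the edited loci with sizes of at least 0.5 units at both. T73 minus CLIB215 was 0.70 at PHO23 and −0.60 at RXT3, and the latter became 0.59 under the genotype field's names. The difference between the loci was not tested, since each strain has 1 pooled value. Of the 4956 complete ORFs, 5.49% met the same condition.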

How the results depend on the processing

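No paired analysis was possible because the table has no column per replicate, and for the same reason no replicate could be left out. Depth is unknown. Using members with a value in both columns gave the same 9 members in each comparison, so it changed nothing by construction. Subtracting the column medians or scaling the columns to a common SD left all 7 counts and 7 medians, and all 63 member differences, within the tolerance (0.1 units, or 1.5 times with the same sign). Each of these settings changed the sign of 2 member differences, none of at least 0.5 units. Scaling to a common SD also took the median for PHO23 deleted against T73 from 0.03 to −0.016. It took the median between the deletions from −0.02 to 0.049. At a size of 0.5 units the members past the rule numbered 4 for PHO23 T73 against CLIB215, 4 for PHO23 deleted against T73, 1 for PHO23 deleted against CLIB215, 1 for RXT3 T73 against CLIB215, 4 for RXT3 deleted against T73, 4 for RXT3 deleted against CLIB215 and 6 between the deletions. Naming the columns by the genotype field moved 37 of the 63 member differences past that tolerance. It changed the sign of 23, of which 5 had a size of at least 0.5 units. These were UME6 in PHO23 deleted minus T73 (−0.26), PHO23 deleted minus CLIB215 (−0.90), RXT3 deleted minus CLIB215 (−0.96) and between the deletions (0.73), and ASH1 in RXT3 T73 minus CLIB215 (0.59). Under those names the members past 1 unit became 0 for PHO23 deleted against T73 and 1, UME6, for RXT3 T73 against CLIB215. UME6 went there from 0.12 to −1.81, a size exceeded by 0.585% of ORFs between those columns. For these comparisons the share of ORFs past 1 unit was not counted. The count became 0 for RXT3 deleted against T73, with 2.32% of ORFs past 1 unit between those columns. It became 1, RXT2, for RXT3 deleted against CLIB215, with 9.02% of ORFs. The medians became −0.14 for PHO23 deleted against T73, 0.15 for PHO23 deleted against CLIB215, −0.028 for RXT3 T73 against CLIB215, −0.020 for RXT3 deleted against CLIB215 and 0.14 between the deletions. These moves follow from the exchange of columns.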
